A study of Drosophila melanogaster with 8 samples.

Results

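The genomic landscape of Distal-less (Dll) in the leg imaginal disc of *Drosophila melanogaster* was read from chromatin immunoprecipitation followed by sequencing (ChIP-seq). All 12319 peaks of the deposited Dll list were taken, out of 22169 peaks in the Dll and Sp1 lists of the series together. The material was leg discs of wandering L3 (the last larval instar) *yw* larvae, with 100 larvae to a pool and all 6 discs of each larva used. The labels give 3 Dll ChIP libraries, precipitated with a goat antibody to Dll at 1.5 μg/ml, and 1 input library made from 10% of the chromatin. Whole discs were used, so a peak can come from any part of the disc. The peaks were called on merged reads, so there is no spread between replicates and the values below are a description of 1 list. The list holds no read counts, so the depth behind a peak is unknown, and an absent peak means only that no region passed the authors' threshold. Each peak has a start and an end in dm3 coordinates and a score, the authors' −log10 of the q value, that ran from 4.0 to 60.31.

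*Dll* encodes a homeodomain transcription factor that is needed to make the distal parts of the fly leg. Homeodomains contact short AT-rich DNA, often around a TAAT core. Dll acts in the leg disc together with the Wingless (Wg) and Decapentaplegic (Dpp) signals, and its targets include genes that set up the proximodistal axis of the limb. Enhancers of such genes are often spread over many kilobases, with several factors bound at each.

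A pair of leg enhancers with predicted Dll sites shows what such sites look like and how the list treats them. *vnE* is an enhancer of *vein* (*vn*), a ligand of the epidermal growth factor receptor (EGFR), and *rhoE* is an enhancer of *rhomboid* (*rho*), a protease that releases EGFR ligands. The study made mutant forms of both, and the wild-type sites are printed 5′ to 3′ as its oligonucleotide list gives them, with the bases replaced in the mutant in capitals and up to 10 bases on either side. The first 4 *vnE* sites shown are all of those with TAAT or its reverse complement ATTA overlapping the replaced bases, the next 2 are sites replaced at AATC, and 4 of the 6 *rhoE* sites follow.
*vnE* Dll site 2: cgaggagcttAATTaaagagcggc
*vnE* Dll site 5: cttggcctatAATttgctgctgt
*vnE* Dll site 8: tcatgcgcaaATTatatggccaa
*vnE* Dll site 9: tggcgctgctTAAtaaacaatca
*vnE* Dll site 3: gcttcctggaAATCaaagagacaa
*vnE* Dll site 10: cttaataaacAATCatcagcaaca
*rhoE* Dll site 1: gcagctccatTAAtgcaattgtt
*rhoE* Dll site 2: agatttgcatAAtttgagcgtt
*rhoE* Dll site 3: caactcctctAAttgccctttc
*rhoE* Dll site 4: ggagttcggtAAtcgggaatcg
TAAT or ATTA overlapped the replaced bases in 4 of 11 *vnE* sites and in 6 of 6 *rhoE* sites. The sites are predictions, and not every one of them is needed by its enhancer. The paper counts all 11 *vnE* sites as important, but only a single *rhoE* site. Its other putative *rhoE* sites were not required under the laboratory conditions used. How often these letters occur elsewhere was not counted, because no genome of this build was used.

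The enhancers differed in the peak list. *vnE*, at chr3L:5859426-5860078, lay inside a Dll peak from 5859068 to 5861195. That peak was long, at 2127 bp, but its score of 6.95 stood at percentile 48.2 of the list. Its only neighbour within 10 kb was a peak of 99 bp with a score of 4.57. *rhoE*, at chr3L:1445379-1445934, overlapped no Dll peak of the deposited list. The paper nevertheless counts *rhoE* among the regions that met its genome-wide criteria once Sp1 was left out of them. It also reports binding of Dll to the enhancer in vitro. Why the deposited list has no peak there was not tested. The nearest peak to *rhoE* ended 1881 bp away, with a score of 10.85, and 5 peaks lay within 10 kb. The strongest of these, at 19.53, covered *rhoLLEMIN*, another *rho* enhancer. The fragment that overlapped a peak thus had fewer peaks around it than the fragment that overlapped none.

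**Figure D1:**
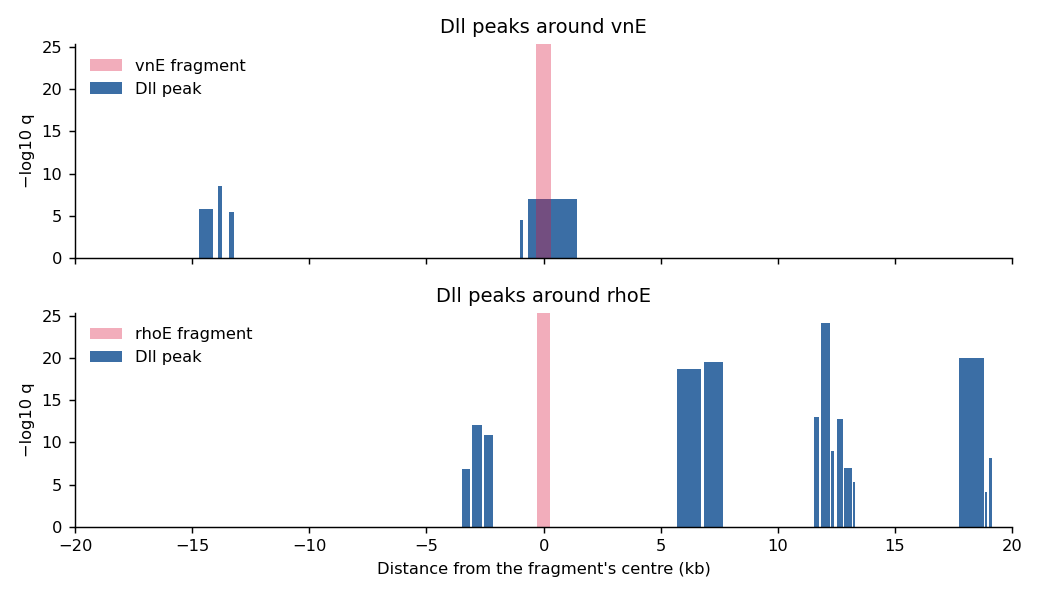
Dll peaks around *vnE* (upper panel) and *rhoE* (lower panel). The x axis is the distance from the centre of the fragment in kb, each blue bar spans 1 peak with its −log10 q as height, and the red band is the fragment. The band of *vnE* falls inside a broad peak of 6.95, and that of *rhoE* falls between peaks of 10.85 and 18.71.

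Most Dll peaks were short and few were strong. The median length was 293 bp, with the 25th and 75th percentiles at 156 and 534 bp. The shortest peaks were 58 bp long, shared by 56 peaks, and 10.6% of the list was 100 bp or less. At the other end, 780 peaks were 1000 bp or longer, and these 6.33% of peaks held 22.1% of all the DNA covered, which came to 4.98 Mb. The median score was 7.09 and the 90th percentile was 17.01. Scores of at least 20 were reached by 772 peaks, of at least 30 by 135 and of at least 40 by 29.

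Longer peaks had higher scores. The rank correlation of length and score was 0.62 over the 12319 peaks, which share the same merged libraries. In 10 equal groups of peaks ordered by score, the median length was 151 bp in the lowest, 249.5 bp in the fifth and 793 bp in the highest. The central 90% of lengths ran from 294 to 1988 bp in the highest group and from 62 to 421 bp in the lowest. These central ranges overlapped only between 294 and 421 bp, and the full ranges of the groups overlapped more widely.

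The strongest peak of the list, at 60.31, lay at chrX:12644269-12646346 in a cluster of 13 peaks. Genes are named here from the study's list of 442 intersection regions, places where a Dll peak, an Sp1 peak, accessible chromatin and predicted sites for Dll, Sp1, Mad and Pan coincide, each with its nearest gene. The nearest such region to this peak, 13870 bp away, was assigned to *Smr*, a transcriptional corepressor. The second peak, at 55.84, lay on 2L in a cluster of 13 peaks, 14694 bp from the region of *tkv*, which encodes a Dpp receptor. The third, at 54.24, overlapped the region of *mab-21* on the X and had only 1 neighbour in its cluster. Intersection regions overlapped 426 of the 12319 peaks in the list. Among the 10 strongest peaks, 5 overlapped an intersection region. Besides *mab-21*, the genes given there were *CG3473* (49.86), *Cpr12A*, which encodes a cuticle protein (47.19), *Pburs*, a subunit of the hormone bursicon (47.07), and a lysine tRNA gene (46.03). The *Pburs* peak also covers a fragment tested for *elB*, a zinc finger gene of the limb axis. Another 2 of the 10, at 49.19 on the X and at 46.03 on 2L, lay over 100 kb from any intersection region with a named gene.

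The 5 longest peaks were a different set. The longest, 4384 bp at chr2L:2751238-2755622, overlapped the region of *Pgk*, a glycolytic enzyme, and scored 39.11. The next, 3917 bp with a score of 36.72, overlapped the region of *tkv*. Peaks of 3632 bp at *crol*, a zinc finger gene of the ecdysone response, and of 3578 bp at *OdsH*, a homeobox gene, scored 29.48 and 37.03. The remaining one, 3878 bp on chromosome 4, scored 17.76 and stood at rank 1058 of the list. None of these 5 was among the 10 strongest.

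**Figure D2:**
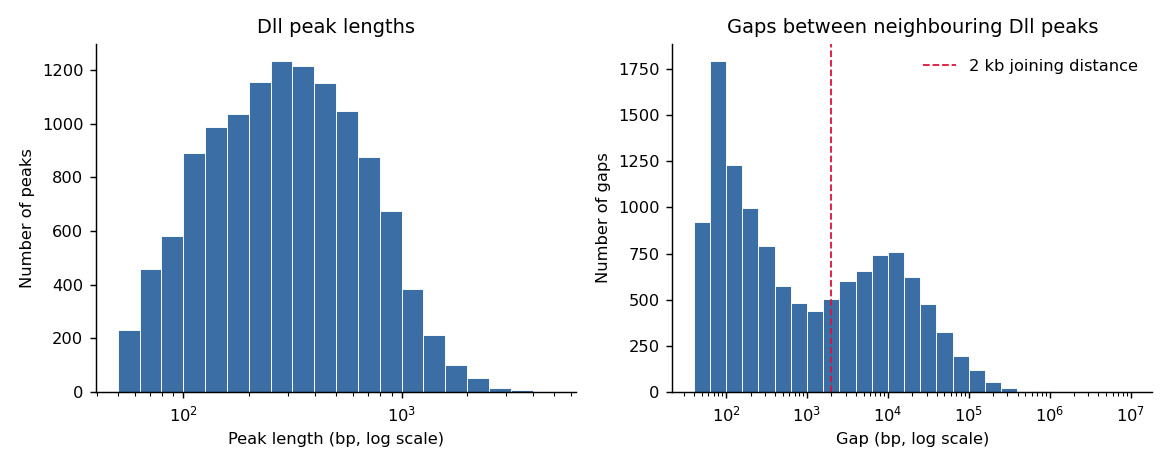
Numbers of Dll peaks by length (left) and of gaps between neighbouring Dll peaks by size (right), both on log10 axes in bp with bars of equal width on the log scale. The lengths form 1 hump around 293 bp, and the gaps form 2 humps, with the dashed line at the 2 kb used to join peaks into clusters.

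Gaps between neighbouring peaks fell into 2 size classes. Of 12306 gaps, 2753 were 100 bp or less, and the smallest was 51 bp. Gaps of 51 to 60 bp numbered 726, so the class of small gaps was cut off sharply at its lower end. Whether peak calling set this limit was not tested. The median gap was 560.5 bp, whereas the mean was about 11.1 kb. On a log scale the commonest gaps were of 63 to 100 bp, with 1795, the trough was at 1000 to 1585 bp, with 441, and a broad second hump reached 761 gaps at 10000 to 15849 bp. Gaps of 2 kb or less made up 60.6% of the total (95% Wilson interval 59.7 to 61.5%, which covers counting error only and treats gaps as independent). The 2 kb used to join peaks lies just beyond the trough. A count of peaks is therefore not a count of separate bound sites, because many neighbours stand closer together than a peak is long.

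Joining peaks over gaps of 2 kb or less gave 4861 units, of which 2165 were single peaks and 2696 were clusters. Clusters held 82.4% of all peaks. There were 119 clusters of 10 or more peaks, with 1640 peaks between them, or 13.3% of the list. Their median span was 9.36 kb, with the extremes at 3983 and 24116 bp, and peaks covered a median of 59.1% of that span. These large clusters were found on every arm, with 26 on 3L, 21 on the X, 19 on 3R, 16 on 2L, 15 on 2R and 22 on the small chromosome 4.

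Single peaks were weaker than clustered ones. The median score was 7.68 in clusters of 10 or more, 7.47 in those of 5 to 9, 7.09 in those of 2 to 4 and 6.13 in single peaks. Median lengths were 288, 301.5, 294 and 277 bp in the same order, a spread of under 25 bp. With chromosome 4 left out, the median scores were 7.84, 7.48, 7.09 and 6.14. The strongest peak of a unit scored a median of 20.82 in the largest clusters, 17.01, 10.76 and 6.13 in the next classes, but a cluster with more peaks also has more chances to hold a high one. The strongest peaks were spread over all classes. Of the 123 peaks in the top 1% by score, 24 were in clusters of 10 or more, which is 19.5% of them, against 13.3% of all peaks. Clusters of 5 to 9 held 41, or 33.3%, against 25.3% of all peaks. Clusters of 2 to 4 held 49, or 39.8%, against 43.8%, and 9 were single, or 7.32%, against 17.6%.

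**Figure D3:**
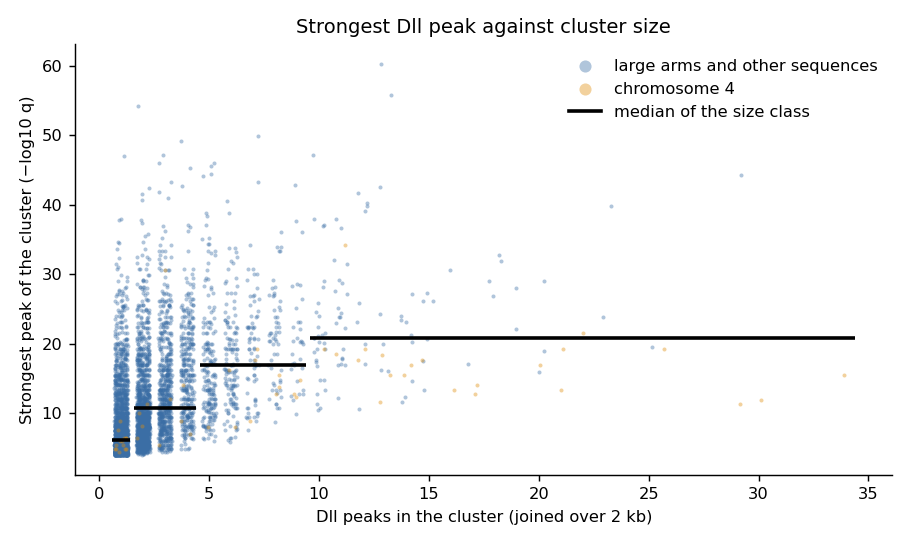
The score of the strongest Dll peak (−log10 q, y axis) against the number of peaks in its cluster (x axis, shifted slightly sideways so that points separate), with 1 point for each of the 4861 clusters and single peaks. Chromosome 4 is in orange, the other sequences are in blue, and black lines give the medians of 6.13, 10.76, 17.01 and 20.82 for 1, 2 to 4, 5 to 9 and 10 or more peaks.

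Off chromosome 4, the cluster with the most peaks was chr2R:14216816-14234541, with 29 peaks in 17.7 kb and a top score of 44.32. Just before it lay another, chr2R:14189869-14208870, with 23 peaks and a top score of 39.85 on a peak of 2047 bp. The second of these holds the intersection region of *sbb*, which encodes a nuclear regulator, and the first begins 19.7 kb from it. On the X, 25 peaks stood at 2182056 to 2202853, with a top score of 19.61. On 2L, 23 peaks at 3769522 to 3784008 had the highest median score of the 10 largest clusters, 13.12. Its strongest peak scored 23.93 in only 131 bp. The other 6 had 18 to 20 peaks in 11.1 to 15.5 kb, with top scores between 16.01 and 31.96. Only the *sbb* cluster, among these 10, holds an intersection region with a named gene. Over all 119 large clusters, 33 held an intersection region and 30 one with a named gene. They held 43 of the 442 regions, or 9.73%, against 13.3% of all peaks.

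Chromosome 4 stood apart in spacing, with the same median score. It carried 523 peaks at 446.9 per Mb of the span from its first to its last peak, against 99.1 per Mb on the 5 large arms, and peaks covered 16.3% of it, against 4.03%. Its median gap was 197 bp, against 624 bp on the large arms. The median peak there was 237 bp long, against 297 bp, and the median score was 7.09 on both. Its highest score was 34.19, against 60.31 on the large arms. Its 3 largest clusters held 34, 30 and 29 peaks, with top scores of 15.55, 12.0 and 11.42. The second of these began 2.47 kb from the region of *zfh2*, a zinc finger homeodomain gene of the leg.

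The 5 large arms were alike in their medians. Density was 107.2 peaks per Mb on 3L, 105.9 on 2R, 96.2 on 3R, 93.6 on the X and 92.9 on 2L. Median lengths ran between 275 bp on the X and 310.5 bp on 2R, and the median score was 7.09 on 4 of these arms and 6.92 on 3R. The highest score of an arm was 60.31 on the X, 55.84 on 2L, 47.19 on 3L, 46.03 on 2R and 42.6 on 3R, all above that of chromosome 4.

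Within an arm, density varied more than between arms. Each arm was divided into 10 equal segments between its first and last peak. The lowest density of all was in the last segment of 3L, with 28.6 peaks per Mb, followed by the last of the X with 32.9 and the first of 2R with 48.1. These segments adjoin the centromere. The segments that adjoin it on 2L and 3R were less empty, at 67.5 and 100.0 per Mb. The highest density on a large arm was in the seventh segment of 2R, at 139.9. Median scores in the 3 emptiest segments were 6.48 on 3L, 6.42 on the X and 6.45 on 2R, slightly under the 7.09 of the list.

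**Figure D4:**
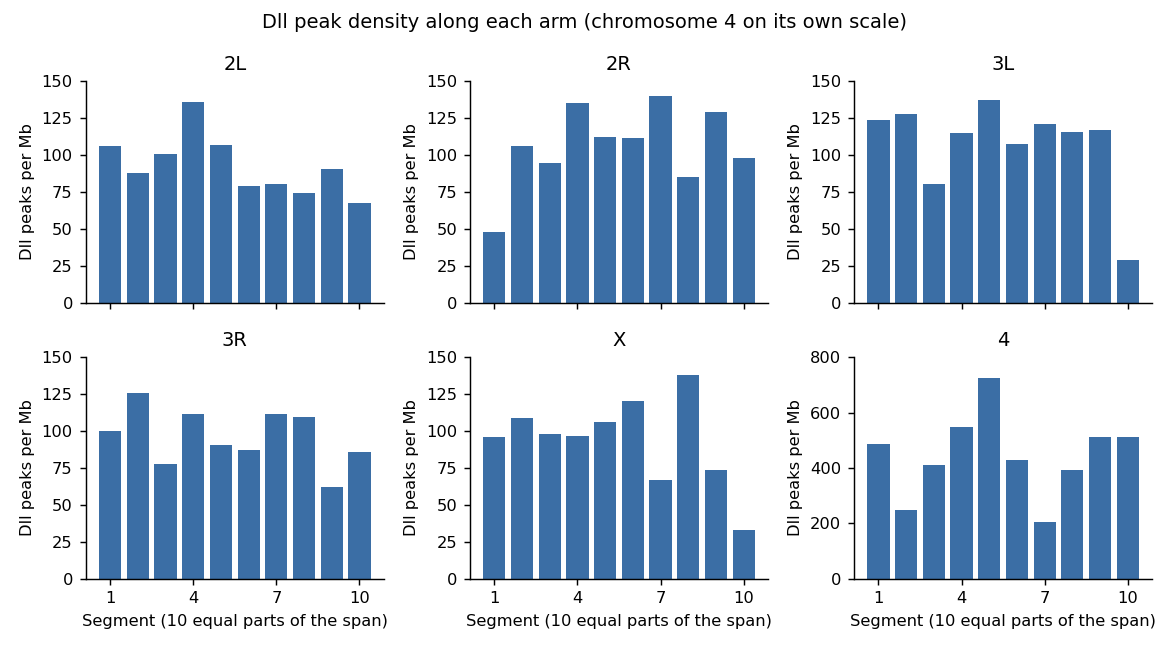
Dll peaks per Mb (y axis) in 10 equal segments of the span between the first and the last peak of an arm (x axis, in the direction of the coordinates). The 5 large arms share 1 scale and chromosome 4 has its own, and the lowest bars are the last segment of 3L at 28.6 and the last of the X at 32.9.

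In whole 1 Mb bins of the large arms, the number of peaks ran from 10 to 183, with a median of 99 over 111 bins. With these bins none exceeded the median by a factor of 2, and 7 lay under 0.5 of it. This depends on where bins begin and on their size, since the densest held 215 peaks per Mb in 1 Mb bins shifted by 500 kb and 242 per Mb in 500 kb bins, against a median of 98 per Mb in both, and 1 of 114 and 10 of 230 bins exceeded it by over 2 times. The densest bin, from 14 to 15 Mb on 2R, held 183 peaks. This bin covers the *sbb* cluster and the larger cluster beside that one. It also covers the regions of *fj*, a kinase of the Fat pathway, and *lolal*. When peaks within 500 bp were first joined, it held 87. The next, from 17 to 18 Mb on 3R, held 165 peaks with the regions of *InR*, the insulin receptor, and *E2f1*, a cell cycle factor. The third, from 3 to 4 Mb on 3L, held 157 peaks but only 1 intersection region. The emptiest bins were 23 to 24 Mb on 3L with 10 peaks, 17 to 18 Mb on 2L with 35 and 21 to 22 Mb on the X with 35, and these 3 held no intersection region. Across the 111 bins, the rank correlation between the numbers of Dll peaks and of intersection regions was 0.43, and each region needs a Dll peak to exist.

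Peak-free stretches of 100 kb or more numbered 191 on the 6 arms and added up to 32.2 Mb, or 26.9% of the spans. Their median was 145 kb, and 43 were 200 kb or longer. The X had the largest share of its span in such stretches, 32.2%, and 2R the smallest of the large arms, 19.3%. Chromosome 4 had none, its longest being 92.8 kb. Since the intersection regions need a Dll peak, none of them can lie inside a stretch.

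The longest, 846 kb at chr3L:23683104-24529177, lay next to the centromere and was bordered by peaks of 92 and 78 bp that scored 6.52 and 4.94. Another stretch, of 351 kb, ended at the first of these peaks, which thus stood alone between 2 empty runs. The next longest on the arms, 419.6 kb at chr3L:13493376-13912941, lay within the arm. It began at a peak of 931 bp with a score of 12.07 that stood 5069 bp from the region of *Tgi*, a cofactor of the Hippo pathway. Stretches of 376 kb on 3R, 371 kb on 2L, 371 kb on the X and 356.5 kb on the X followed, and the tenth longest was 306 kb on 2L. A stretch of 332 kb on 3R began at a strong peak of 2045 bp with a score of 27.24, and one of 345 kb on 2L ended at a peak of 27.32 that stood 11.7 kb from the region of *crp*, a transcription factor gene. The longest on 2R was 262 kb and ended 22.2 kb from the region of *lolal*.

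Peaks at the edges of these stretches were not set apart by length. The 374 bordering peaks had a median length of 288 bp, against 293 bp on the 6 arms, and a median score of 6.52, against 7.09. Of them, 55.1% stood in a cluster, against 82.4% of all peaks, but a bordering peak has a neighbour on 1 side only.

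Peaks with no other peak within 10 kb on either side were scarce. They numbered 725, or 5.89% of the list, with a median score of 6.44 and a median length of 276 bp, against 7.09 and 293.5 bp in the other 11594. Some were nonetheless strong, and 26 scored at least 20. The strongest, at 34.67, was a peak of 701 bp at chr2R:14498849-14499550. The next was a peak of 1278 bp on 3L with a score of 33.71 and no other peak for 64525 bp before it and 62418 bp after it. The third, 1714 bp and 32.3 at chr2L:14436314-14438028, overlapped the region of *Cpr35B*, a cuticle protein gene, and covers *noc_LE1*, a fragment tested for the limb gene *noc*.

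The intersection regions lay on 426 of the 12319 Dll peaks and were used to name genes there. Genes beside peaks with no region nearby are not covered. The 442 regions, of which 22 have no gene name, were assigned to 339 genes, which is 1.90% of the 17872 genes in a RefSeq table of a later assembly. The gene lists below were chosen with results of these data known, so how many of their genes are named is not read as a result. Each region overlapped exactly 1 Dll peak. A median of 6 Dll peaks (25th to 75th percentile 4 to 9) lay within 10 kb of a region, and the same count around every Dll peak, itself included, also had a median of 6 (3 to 10). The regions were thus in places about as crowded as other Dll peaks. The peaks they took were longer and stronger. The median Dll peak under a region was 864 bp long with a score of 15.6, against 293 bp and 7.09 over the list. Of the 371 regions in clusters, 219 lay in the strongest peak of their cluster, or 59.0% (95% Wilson interval 54.0 to 63.9%), where 27.0% of all clustered peaks were the strongest of theirs. The first share is per region and the second per peak, and 15 peaks hold 2 or 3 regions, so the interval is too narrow. With each peak counted once, 207 of 357 were the strongest, or 58.0%. In clusters of 10 or more the shares were 39.5% of 43 regions and 7.38% of all peaks. The regions were chosen by the authors from these same peaks, so the shares are a description, and the part of peak length in them was not tested.

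The gene with the most Dll peaks within 10 kb of its regions was *jing*, a zinc finger gene, with 29 peaks over 6 regions and a top score of 37.81. *Tet*, a member of the TET dioxygenase family, had 25 over 3 regions, *ovo*, an epidermal transcription factor gene, had 23 over 4, and 3 genes tied at 21, *shn* over 4 regions, *tou*, a chromatin remodelling factor gene, over 3 and *sbb* from 1. At the other end 18 genes had only 1 peak. Genes with more regions have wider windows, so the 288 genes named once are the fairer base, and their median was 5, against 6 over all 339.

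Of 29 genes of the proximodistal axis of the limb, 15 were named nearest to an intersection region. They had a median of 7 Dll peaks within 10 kb, in a range of 1 to 20. *Antp*, the Hox gene of the second thoracic segment, had 20 over 4 regions, with a top score of 26.34. *Sp1*, which encodes the partner factor, had 18 from 1 region, with a top score of 33.42, and the related *btd* had 9, with 27.32. *zfh2* had 13 and *disco-r*, a zinc finger gene, had 11. *Dll* itself had 7 peaks over 2 regions, the strongest of 2060 bp at 24.23. *elB* had only 8 peaks, but they include the peak of 47.07. At the low end *bab2*, a tarsal gene, and *ss*, an antennal and tarsal gene, had 2 each, with top scores of 21.02 and 7.32, and *tal-3A*, the small-peptide gene *tarsal-less*, had 1, of 6.52. Genes of the same axis thus ranged over most of the scale. The counts cover only the 10 kb around a region. A cluster of 20 peaks at chr3L:1087284-1102517, with a top score of 29.1, has the region of *bab2* as its nearest. It lies 75.41 kb away and is not in the count of *bab2*.

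Of 18 genes listed for the Wg pathway, 11 were named. They had a median of 12 Dll peaks within 10 kb over only 12 regions. The list is not limited to core components and includes *H15*, with 8 peaks. *nkd*, a feedback inhibitor, had 15. The receptor genes *fz*, *fz2* and *fz3* had 14 each, with top scores of 23.12, 30.89 and 40.52. The glypican gene *dlp* had 13, the ligand gene *Wnt2* had 12 with a top score of 40.2, and the co-receptor gene *arr* had 11 with 38.4. The gene of the ligand itself, *wg*, had 2 peaks, the longer of 2314 bp and 16.08. The genes of the receptors and of the inhibitor thus had more peaks within 10 kb of their regions than *wg*, which had 1 region. Peaks farther from a region are not in these counts, so whole genes are not compared. Peaks covered 2767 bp around the region of *wg* and 4296 bp around that of *fz*. For *fz3*, *nkd* and *fz2* they covered 7798, 8296 and 9261 bp, the last over 2 regions.

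The genes listed for the Dpp pathway were split. The 5 of 13 genes named had a median of 11 peaks. *shn*, a nuclear effector of the pathway, had 21 over 4 regions, *Dad*, an inhibitory Smad, had 15 from 1 region, and *tkv* had 11. In contrast, *salm*, a target gene, and *Smox*, a Smad of the related Activin branch, had 2 each. Of 10 genes listed for the Notch pathway 6 were named, with a median of 11.5. They include the transcription factor genes *nub*, with 11 peaks, and *ara*, with 3, which are not core components of the pathway. *fng*, which modifies Notch, had 18 peaks, the ligand gene *Ser* had 16, and *E(spl)malpha-BFM* had 9 with a peak of 3031 bp that scored 30.08. Of 7 genes of the Hedgehog pathway 3 were named, with 14 peaks beside the receptor gene *ptc*, 9 beside the ligand gene *hh* and 6 beside the co-receptor gene *boi*. Of 12 EGFR pathway genes 3 were named, the ligand gene *spi* with 10 peaks, the repressor gene *aop* with 8 and the inhibitor gene *kek1* with 7, and their top scores were all under 20. The regions in the *vnE* peak and in the peak over *rhoLLEMIN* are assigned to *CG5568* and *Ptp61F*, so the nearest-gene rule leaves *vn* and *rho* out of this count.

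Of 11 ecdysone response genes, 6 were named, with a median of 10.5 peaks over 13 regions. *Eip74EF*, an early response gene, had 18 over 4 regions, and *EcR*, the receptor gene, had 12 over 2. Of 11 genes of the Fat and Hippo pathways, 4 were named, *ex* with 13 peaks and *Tgi*, *fj* and *ds* with 6 or 7. Among 9 markers of other cell types, 3 were named. *lbl*, a muscle and cardiac homeobox gene, had 15 peaks over 2 regions, *trh*, a tracheal gene, had 6, and *elav*, a neuronal gene, had 1. Their median of 6 was that of all 339 genes, and the list medians run from 6 to 12.

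**Figure D5:**
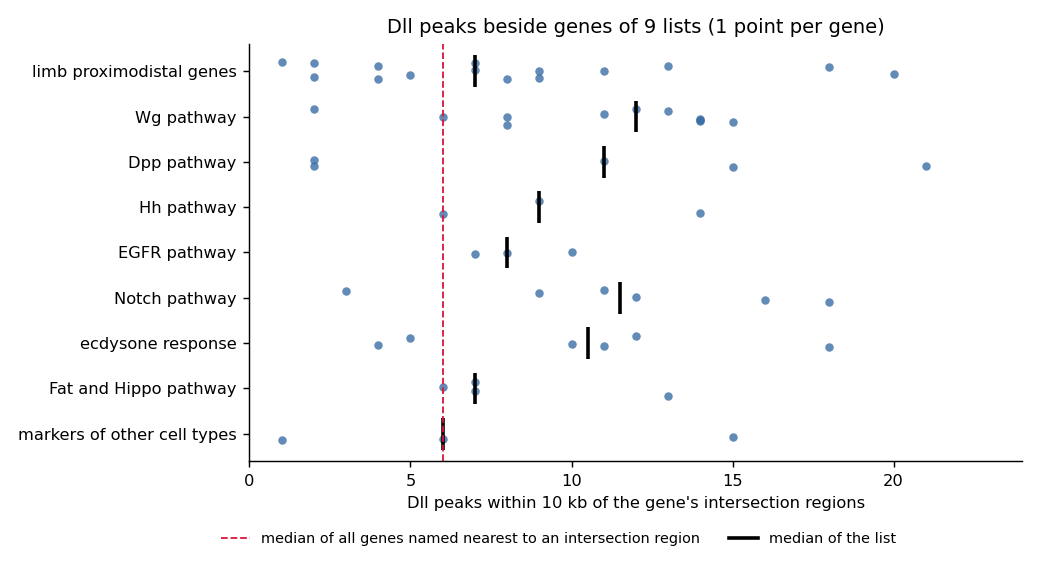
Dll peaks within 10 kb of each gene's intersection regions (x axis), with 1 point for each gene of 9 lists that is named nearest to a region, shifted slightly up or down so that points separate. Black lines are list medians and the dashed line is the median of 6 over all 339 genes, and the lists overlap over most of their range.

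The fragments that the study tested in leg discs covered a wide part of the list. With *vnE*, 23 fragments overlapped a Dll peak, with best scores between 4.36 and 47.07, a median of 17.01 and a median peak length of 886 bp. The paper took these fragments from its intersection regions, each of which needs a Dll peak, so the overlap was fixed by that choice. The scores, lengths and ranks of their peaks are likewise a description of chosen peaks. The best peak reached the list median score in 17 of the 23 and the top 10% in 12. It was single for 6 fragments, and among the 17 in clusters it was the strongest of its cluster for 11. Only *E(spl)m3-HLH_LE* lay in a cluster of 10 or more, where its peak of 21.71 was second of 12, behind one of 25.89.

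Fragments of 1 gene often sat on unequal peaks. The best peak of each is given, and *elB_In*, *Antp_LE1*, *disco_In1*, *disco_In2* and *Ote/fj_LE* overlapped 2 peaks each. The paper reports that most, but not all, of the tested fragments are leg enhancers. It found none with a bias along the limb axis for *disco*, and the further enhancers that it shows carry LE in their names. Fragments with In in their names are not among the enhancers shown. Their best scores were 5.43, 10.17, 17.01, 18.69 and 26.34, inside the LE range of 4.36 to 47.07. Peak score thus did not separate the fragments by name. *Dll_LE1* overlapped the peak of 24.23 and *Dll_LE2* one of 398 bp at 4.36, the weakest of 3 in its cluster. *elB_LE* overlapped the single peak of 47.07, which is 1460 bp long, and *elB_In* one of 445 bp at 17.01. Among the *Antp* fragments, *Antp_In2* overlapped a peak of 1165 bp at 26.34, *Antp_In1* one of 392 bp at 10.17, *Antp_LE2* a single peak of 886 bp at 6.98 and *Antp_LE1* one of 519 bp at 5.82. *noc_LE1* overlapped a single peak of 32.3 and *noc_LE2* one of 23.75, the strongest of 2. *disco_In2* overlapped a peak of 517 bp at 18.69 and *disco_In1* one of 105 bp at 5.43, and each was the strongest of its cluster. *zfh2_LE* and *Ote/fj_LE* overlapped peaks of 30.58 and 28.66, each the strongest of 3. *fj_LE2* overlapped a single peak of 23.15 and *fj_LE1* one of 340 bp at 8.47. *spi_LE1* and *spi_LE2* were alike, on peaks of 16.25 and 16.58 in the same cluster of 9. *tal_LE* and *ss_LE* overlapped single peaks of 6.52 and 7.32, close to the median of the list.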

How the data were processed

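Leg disc chromatin was precipitated for Dll in 3 libraries, with 1 input library. Alignment was done with BWA. The authors found peaks on merged reads with MACS2 2.0.9 and deposited each peak in dm3 coordinates with its −log10 q value. The methods mention both triplicate pools and merged duplicates, so which libraries entered the list is not settled. Starts were read as counted from 0 and are printed as given. Depth is unknown.

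Counts, medians and correlations were computed with pandas 2.3.3 and scipy 1.17.1 (Python 3.11.15), Wilson intervals with statsmodels 0.14.6 and figures with matplotlib 3.10.9. Peaks were joined into clusters over gaps of 2 kb or less. Stretches and bins were taken between the first and last peak of an arm. The clustering and window counts were tested on simulated lists, and planted clusters were recovered in 50 of 50. No comparison between groups was made, and no test was run. The members and gene lists were chosen with earlier results of these data known. Loci were named by rule: the 10 strongest and 5 longest peaks, the 10 largest clusters off chromosome 4 and 3 on it (equal counts ordered by span), the 10 longest stretches and the longest of each arm, the 3 densest and 3 emptiest bins, genes of 9 lists, and every tested fragment. Names outside it, such as the 6 genes with the most peaks and the strongest lone peaks, were chosen after their values were seen. All 339 gene names had a match in a RefSeq table of a later assembly, used for names alone. The Sp1 list was used for its number of peaks only, and 41 alternatives were tried.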

Additional observations from a re-analysis of the deposited data

How the results depend on the processing

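The peaks came from merged reads as 1 list, so neither a paired analysis nor leaving out a library could be done, and no spread between replicates exists. Of 41 alternatives, 1 of them chosen after seeing the data, 13 left a value within its 95% interval or, for counts and densities, within 1.5 times. A score of at least 6 kept 7464 peaks, with a median length of 424 bp, a rank correlation of 0.55 between length and score, 51.1% of gaps at 2 kb or less and 36 clusters of 10 or more. A score of at least 10 kept 3722 peaks, with 598 bp, 0.41, 37.6% and 6, as well as 326 stretches of 100 kb or more, 70 peaks per Mb in the densest bin and a median of 2 peaks within 10 kb of an intersection region. Most large clusters thus rest on peaks with scores under 10. The Pearson correlation of the log10 values was 0.63. The share of short gaps was 59.3% without chromosome 4, and 48.9%, 55.1% and 70.4% at limits of 500 bp, 1 kb and 5 kb. Joining over 500 bp, 1 kb and 5 kb gave 34, 78 and 211 large clusters, and over 5 kb 49.6% of intersection regions lay in the strongest peak of their cluster. Limits of 50 kb and 200 kb gave 537 and 43 stretches. With peaks within 500 bp joined first, the densest bin held 87, against 215 and 242 per Mb in shifted and in 500 kb bins, and the median around intersection regions was 3, and windows of 5 kb and 20 kb gave medians of 4 and 10. The number of tested fragments on the strongest peak of their cluster ran from 10 to 13 over the joining distances.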

Other observations

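Scores of neighbours were only weakly alike. Over 4447 neighbouring pairs with a gap of 200 bp or less, the rank correlation of their scores was 0.18, and the median difference was 3.74. Over 3011 pairs with a gap above that and up to 2 kb it was 0.03, and over 2584 pairs more than 10 kb apart it was -0.02. In 63.5% of the 2696 clusters the strongest peak was also the longest. In 43.8% of the 1543 clusters of 3 or more it stood at an end of the cluster. In a small cluster any peak is often the longest or at an end. The shares to be expected from cluster sizes were not computed, so neither share is read as a result.

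Scores were not evenly spread. The 12319 peaks took 1463 distinct values, and the 10 commonest held 22.4% of the list. The commonest, 4.43, was given to 531 peaks whose median length was 140 bp, and 7.09, the list median, to 232. Each of these 10 values occurred on all 6 arms, so ties are common in any ranking by score.

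A few peaks lay outside the assembled arms. The heterochromatin and unplaced sequences held 52 peaks. Their median length was 148.5 bp and their median score 5.49, and none scored above 13.34.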
